A study of Mus musculus with 4 samples.

Results

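The transforming growth factor beta (TGF-beta) family signals through secreted dimers that bind pairs of type II and type I receptor kinases, and the activated type I receptor phosphorylates Smad proteins that enter the nucleus with Smad4. TGF-beta and activin act mainly through Smad2 and Smad3, and bone morphogenetic proteins (BMPs) through Smad1, Smad5 and Smad9. In CD4 T cells, TGF-beta together with IL-6 promotes the Th17 fate, and TGF-beta without such inflammatory cytokines promotes regulatory T cells. The levels of 40 genes of this pathway, chosen by symbol from the 50600 genes counted, were measured in mouse T helper 17 (Th17) cells, IL-17-secreting CD4 T cells. They comprised 5 ligand genes, 6 genes of ligand latency and activation, 6 type I and 4 type II receptors, 3 coreceptors or decoys, 8 Smads and 8 negative regulators. All 40 were found, each as a single row.

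The samples were 4 libraries of total RNA, per the labels, from primary T helper 17 cells of C57BL/6NJ mice. They are labelled biological replicates 1 to 4, and the linked library protocol is named for poly(A)+ RNA. There was no other group, treatment, genotype or time in the labels. The labels link a protocol for CD4 T cell differentiation, while the cytokines used are not given in the sources used here. A time of 48 hours stands in the counting command's output name but not in the labels. A single donor label is shared by all 4, and the labels give neither age nor sex. Totals ran from 28555677 to 58104663 fragment counts. Levels are in TPM, a count per exon length set relative to the library's sum of such values, and are given as mean ± SD over n = 4 libraries. The libraries did not all carry the same sex-linked genes: TPM values of the X-linked RNA Xist were 132, 131, 0.329 and 0.496 for replicates 1 to 4, and those of the Y-linked Eif2s3y 0.282, 0.239, 65.5 and 58.4. None of the 40 genes lies on chromosome X or Y (0 of 40). All 8 Th17 markers were at 1 TPM or more in every library, led by Il17f (11569 ± 117 TPM). Marker lists of cells other than CD4 T cells had low sums. Of the platelet list, 5 of 6 genes had 0 counts in all libraries, of the endothelial list 3 of 7, of the stromal, macrophage, dendritic cell and B cell lists 1 each (of 7, 7, 6 and 5), and of the CD8 T cell list none (0 of 4). The CD8 T cell marker Cd8b1 (10.2 ± 1.07 TPM), the macrophage marker Cd68 (6.46 ± 0.574) and the endothelial marker Pecam1 (6.27 ± 0.304) were at 1 TPM or more in every library. So were the stromal marker Lum (4.35 ± 0.449 TPM) and the dendritic cell marker H2-Ab1 (1.45 ± 0.0611). The CD8 T cell marker Cd8a was at 0.0612 ± 0.0477 TPM, and the stromal marker Col3a1 and the macrophage marker Lyz2 had 0 counts. Platelet genes summed to 0.340 to 0.546 TPM, endothelial genes to 5.92 to 6.58, stromal genes to 4.14 to 5.19, macrophage genes to 7.31 to 8.71, dendritic cell genes to 2.10 to 2.73, B cell genes to 0.481 to 1.04 and CD8 T cell genes to 9.37 to 11.99. In bulk RNA, fewer cells of a type and less RNA per cell cannot be told apart.

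As a group the pathway genes were present at moderate levels, with wide differences between close relatives. At 1 TPM or more in every library stood 28 of 40 (70.0%), against 47.0% of 21764 protein-coding genes. The median over the 40 was 13.3 TPM, against 0.575 over protein-coding genes. Means of at least 20 TPM were reached by 17 genes and means of at least 100 by 5: Furin, Pmepa1, Ski, Tgfb1 and Inhba. Below 1 TPM stood 12 genes, among them Bmpr1b and Smad9 with 0 counts in all 4 libraries. A count of 0 allows up to 3 counts, or 0.0516 to 0.105 CPM by library (CPM scales counts to the library total), a limit that covers counting error only.

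**Figure D1:**
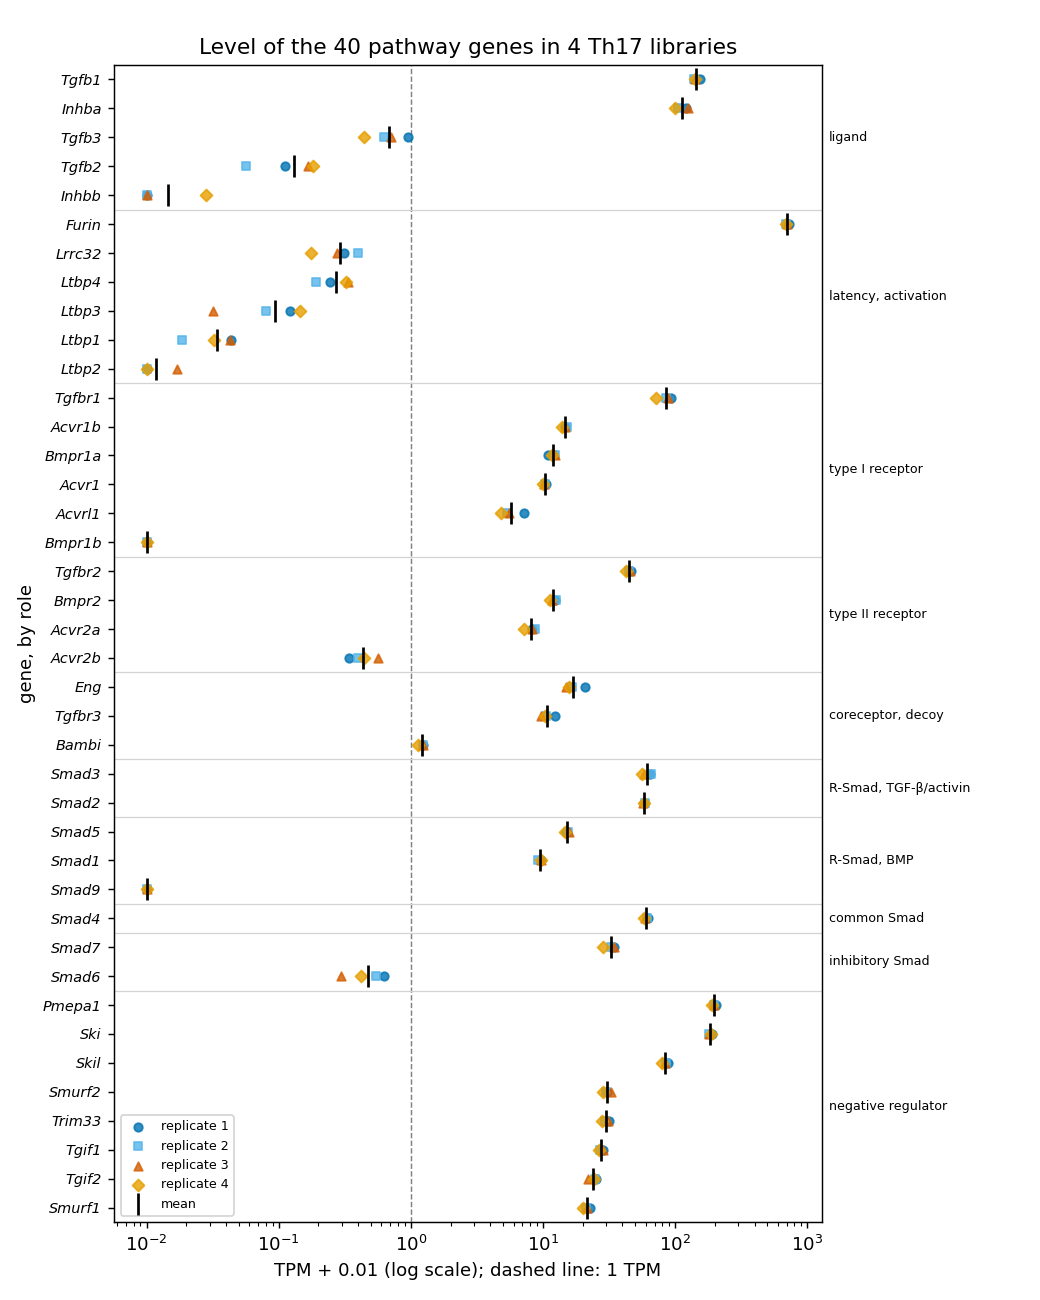
Level of each of the 40 genes by role (rows) in the 4 libraries, on a log axis of TPM + 0.01. Coloured points are replicates 1 to 4, black bars are means and the dashed line marks 1 TPM; Furin lies farthest right at 706 TPM, and Bmpr1b and Smad9 lie at the left edge with 0 counts.

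Among the 5 ligand genes of the 40, these cells carried transcripts of Tgfb1 and Inhba and few of the others. Of 23 ligand-family genes listed outside the 40, 3 were at 1 TPM or more in every library, among them Gdf11 (13.4 ± 0.605 TPM). Tgfb1, the main TGF-beta isoform of lymphocytes, was at 154, 139, 142 and 142 TPM in replicates 1 to 4 (144 ± 6.76, SD, n = 4), with replicate 1 above the other libraries. Inhba, whose product dimerizes into activin A, was at 121, 104, 124 and 99.9 TPM (112 ± 12.1), high in replicates 1 and 3 and low in replicates 2 and 4. The Inhba level rests on 1980 deposited exon bases, while its longest GENCODE M21 transcript has 6390. The Tgfb1 level rests on 5042, while its longest transcript has 2573. By these levels Tgfb1 exceeded Inhba in 4 of 4 libraries with no overlap. Of protein-coding genes, 93.7% had a lower mean than Tgfb1 and 91.8% a lower mean than Inhba.

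The other ligand genes were all under 1 TPM. Tgfb3 was at 0.935, 0.614, 0.693 and 0.434 TPM (0.669 ± 0.208, from 110 counts in all), highest in replicate 1 and lowest in replicate 4. Tgfb2 was at 0.101, 0.0468, 0.158 and 0.173 TPM from 37 counts. From counts pooled over libraries and scaled by length, Tgfb1 stood 221 times above Tgfb3 (exact 95% interval 183 to 269) and 1124 times above Tgfb2 (815 to 1597). Inhbb, the other activin subunit gene, had a single count (0, 0, 0 and 1), and Inhba stood 24071 times above it with an interval of 4319 to 950831. These intervals cover counting error only. Inhba took 43.6 ± 2.23% of the summed level of the 5 ligand genes and Tgfb1 56.1 ± 2.26%. With the longest transcript as length where this is shorter than the exon length, Tgfb1 was at 219 TPM and Inhba at 86.9. Inhba kept its 1980 exon bases in that setting, so only the library sum that it is set against changed. The shares of Tgfb1 and Inhba were 71.5 ± 1.88% and 28.3 ± 1.85%. The mean log2 ratio of Tgfb1 to Tgfb3 moved from 7.59 to 8.51 and that to Tgfb2 from 9.40 to 10.10.

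The RefSeq promoters of the activin subunit genes, from 250 bases before to 50 bases after the start, are shown because their order in base composition was opposite to their order in level. They were read in build GRCm38.p6 at chr13:16011601-16011900 on the plus strand for Inhba and chr1:119422199-119422498 on the minus strand for Inhbb. Capitals mark the GC box GGGCGG on either strand, the binding motif of Sp1-type factors.
Inhba: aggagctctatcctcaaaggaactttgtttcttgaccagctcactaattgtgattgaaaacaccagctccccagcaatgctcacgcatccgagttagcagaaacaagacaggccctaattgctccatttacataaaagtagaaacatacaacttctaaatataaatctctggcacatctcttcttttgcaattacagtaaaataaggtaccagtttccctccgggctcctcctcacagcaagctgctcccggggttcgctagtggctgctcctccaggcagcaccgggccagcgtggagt
Inhbb: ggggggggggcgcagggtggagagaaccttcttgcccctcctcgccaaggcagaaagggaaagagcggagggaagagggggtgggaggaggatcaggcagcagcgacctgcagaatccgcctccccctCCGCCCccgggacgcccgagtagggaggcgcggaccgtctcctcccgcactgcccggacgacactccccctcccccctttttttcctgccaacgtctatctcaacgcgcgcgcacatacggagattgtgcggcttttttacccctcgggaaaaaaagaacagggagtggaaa
The Inhba stretch held 7 CpG dinucleotides, 0.426 times the number its base composition gives, and 0 GC boxes. The Inhbb stretch held 23 CpG dinucleotides, a ratio of 0.741, and 1 GC box. Inhba was at 112 TPM in these cells and Inhbb at 0.00454.

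Furin transcripts were abundant, and those of the latency proteins among the 40 genes were scarce. Outside the 40, Nrros, which anchors latent TGF-beta on cells, was at 28.6 ± 0.990 TPM. Furin encodes the protease that cleaves the TGF-beta precursor among many others. Its level rests on 9178 exon bases, against 5736 in its longest transcript. It was the highest of the 40 genes at 735, 692, 709 and 688 TPM (706 ± 21.2), a mean above that of 99.2% of protein-coding genes, and replicate 1 was highest. Latent TGF-beta binding proteins tether the latent complex to the matrix. Their genes Ltbp4 (0.264 ± 0.0679 TPM, 89 counts in all), Ltbp3 (0.0846 ± 0.0496, 20 counts), Ltbp1 (0.0243 ± 0.0117, 13 counts) and Ltbp2 (a single count) were all under 1 TPM. Ltbp4 exceeded Ltbp3 in 4 of 4 libraries, while the order of Ltbp3 and Ltbp1 changed in replicate 3. Lrrc32 encodes GARP, which displays latent TGF-beta on activated regulatory T cells. It had 12, 20, 22 and 10 counts, or 0.300, 0.385, 0.268 and 0.165 TPM, and was lowest in replicate 4. Foxp3, the lineage factor of regulatory T cells, was at 6.29, 6.02, 4.97 and 3.70 TPM in the same libraries and was also lowest in replicate 4. Of the regulatory T cell list, which holds Lrrc32, 6 of 8 genes were at 1 TPM or more in every library, and the list summed to 3377 to 3557 TPM, highest in replicate 4. Nearly all of that sum came from Il2ra (1538 ± 29.4) and Ctla4 (1907 ± 82.9), which activated T cells also express. Ikzf2 (4.54 ± 0.191), Nrp1 (6.51 ± 0.980) and Gpr83 (7.59 ± 0.982) were low. Their part in the Lrrc32 values was not tested.

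Of the type I receptors, Tgfbr1 took 66.5 ± 1.81% of the summed level. Tgfbr1, the TGF-beta type I kinase, was at 93.1, 85.4, 89.1 and 71.98 TPM (84.9 ± 9.17), with replicate 4 below the other libraries. Acvr1b, the activin type I kinase that also signals through Smad2 and Smad3, was at 14.7 ± 0.583 TPM. The BMP type I kinases followed closely, with Bmpr1a at 11.8 ± 0.741 TPM and Acvr1 at 10.3 ± 0.254. Acvrl1, or ALK1, best known from endothelium, was at 7.23, 5.33, 5.51 and 4.78 TPM, with replicate 1 above the other libraries. Bmpr1b had 0 counts, and taking 3 counts in each library as its floor puts Bmpr1a at least 184-fold higher.

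Acvr1b and Acvrl1 lie next to each other on chromosome 15, 28730 bases apart with 0 protein-coding genes between them. Acvrl1 spans 101128522 to 101145336 and Acvr1b 101174067 to 101213679 in mm10, both on the plus strand. Acvr1b was above Acvrl1 by mean level (14.7 against 5.71 TPM).

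Among the type II receptors the TGF-beta receptor was again the highest. Tgfbr2, the TGF-beta type II kinase, was at 46.6, 44.4, 45.6 and 42.7 TPM (44.8 ± 1.69) and took 68.6 ± 0.888% of the summed type II level. Bmpr2, the BMP type II kinase, was at 11.97 ± 0.571 TPM and Acvr2a, an activin type II kinase, at 8.13 ± 0.637. Acvr2b, its paralog, was at 0.426 ± 0.0950 TPM from 88 counts. Tgfbr1 exceeded Tgfbr2 in 4 of 4 libraries by a mean log2 ratio of 0.91 ± 0.11, and Tgfbr2 exceeded Bmpr2 by 1.90 ± 0.06. Acvr2a stood 18.1 times above Acvr2b by pooled counts (exact 95% interval 14.6 to 22.7).

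Coreceptors were low to moderate. Eng, or endoglin, a coreceptor that works with Acvrl1 in endothelium, was at 20.7, 16.6, 14.8 and 15.7 TPM, highest in replicate 1 like Acvrl1. Of the endothelial list, Cdh5, Kdr and Emcn had 0 counts in every library. Tek was at 0.0317 ± 0.0238 TPM, Tie1 at 0.00872 ± 0.0174 and Vwf at 0.0014 ± 0.00281. Pecam1, which leukocytes express too, was at 6.58, 5.86, 6.32 and 6.34 TPM. The part of endothelial cells in the Eng and Acvrl1 values was not tested. Tgfbr3, or betaglycan, which presents TGF-beta2 to its receptors, was at 12.4, 10.6, 9.66 and 10.4 TPM, again highest in replicate 1. Bambi, a decoy receptor without a kinase, was at 1.20 ± 0.0554 TPM, the lowest gene counted as present. With the longest transcript as length where shorter than the exon length, Bambi was at 0.929 TPM. Eng exceeded Tgfbr3 in 4 of 4 libraries (log2 ratio of Tgfbr3 to Eng -0.64 ± 0.06). Per count and without length scaling, that order turned to 0.04.

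The Smads of the TGF-beta and activin branch outweighed those of the BMP branch. Smad3 was at 64.1, 66.2, 58.7 and 55.9 TPM (61.2 ± 4.77), Smad2 at 58.1, 59.1, 57.1 and 58.7 (58.2 ± 0.862), and Smad4, the shared partner, at 62.5, 61.7, 59.5 and 58.4 (60.5 ± 1.90). The Smad2 level rests on 3549 deposited exon bases, against 8089 in its longest GENCODE M21 transcript. Smad2 had the smallest coefficient of variation of the 38 genes with any count, 1.48%. Smad3 and Smad2 overlapped: Smad3 was higher in 3 of 4 libraries, with a mean log2 ratio of 0.07 ± 0.11 (exact sign-flip test, two-sided p = 0.375, adjusted p = 0.375). Smad5 was at 15.2 ± 0.466 TPM and Smad1 at 9.50 ± 0.233, while Smad9 had 0 counts. The mean log2 ratio of Smad5 to Smad1 was 0.67, and 0.12 with the longest transcript as length where shorter. Summed, Smad2 and Smad3 reached 119 ± 5.15 TPM and the BMP-branch Smads 24.7 ± 0.414. Their log2 ratio was 2.31, 2.34, 2.19 and 2.23 in replicates 1 to 4, a 4.83-fold difference of means.

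Of the inhibitory Smads, which block receptors and bring in ubiquitin ligases, Smad7 was the abundant one. Smad7, itself induced by TGF-beta in many cells, was at 34.3, 32.9, 34.5 and 28.7 TPM (32.6 ± 2.71), with replicate 4 below the others. Smad6, which acts mostly on BMP signalling, had 17, 19, 16 and 17 counts, or 0.463 ± 0.147 TPM. Smad7 took 98.6 ± 0.416% of their sum and stood 75.8 times above Smad6 by pooled counts (exact 95% interval 59.8 to 97.6).

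Smad6 and Smad3 are neighbours on the minus strand of chromosome 9, 195081 bases apart with 0 protein-coding genes between them, and differ widely in level. Smad3 spans 63646767 to 63757994 and Smad6 63953076 to 64022059. Their RefSeq promoters in build GRCm38.p6, at chr9:63757945-63758244 for Smad3 and chr9:64022010-64022309 for Smad6, both on the minus strand, are shown because both are rich in CpG while their levels differ. Capitals mark GGGCGG on either strand and the palindrome GTCTAGAC, a binding motif of Smad3 and Smad4.
Smad3: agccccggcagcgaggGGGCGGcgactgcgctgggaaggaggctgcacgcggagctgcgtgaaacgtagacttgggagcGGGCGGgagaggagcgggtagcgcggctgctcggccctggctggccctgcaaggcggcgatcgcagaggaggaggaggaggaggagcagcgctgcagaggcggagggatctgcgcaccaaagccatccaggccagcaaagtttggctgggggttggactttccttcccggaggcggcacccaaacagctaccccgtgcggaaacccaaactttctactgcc
Smad6: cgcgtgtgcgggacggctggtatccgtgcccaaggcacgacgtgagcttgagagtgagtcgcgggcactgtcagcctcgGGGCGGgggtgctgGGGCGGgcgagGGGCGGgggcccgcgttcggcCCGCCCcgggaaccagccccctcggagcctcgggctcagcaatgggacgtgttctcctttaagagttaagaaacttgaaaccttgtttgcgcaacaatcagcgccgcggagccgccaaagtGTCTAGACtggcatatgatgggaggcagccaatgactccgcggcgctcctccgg
Smad3 had 25 CpG dinucleotides (0.753 of the number its composition gives) and 2 GC boxes. Smad6 had 31 (0.952), 4 GC boxes and 1 copy of GTCTAGAC.

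Over the table, 29 of the 40 genes matched 42 promoters, counting alternative starts, and 11 genes had no entry. A CpG ratio above 0.6 was found in 31 of these 42 (73.8%) and in 35.8% of all 32851 promoters of 300 bases. GGGCGG, on either strand, was in 64.3% of the 42 and 35.7% of all. CAGACA, the core of a Smad element, was in 26.2% and 21%, the AP-1 motif TGANTCA in 2.38% and 7.81%, the E-box CACGTG in 4.76% and 7.15%, and GTCTAGAC in 2.38% and 0.213%, the Smad6 promoter being the only match among the 42. Matches to different motifs may overlap. These are matches of letters in a window.

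All 8 negative regulators had means of 20 TPM or more by exon length. Smurf1 was at 19.3 TPM with the longest transcript as length where shorter than the exon length. Pmepa1, which encodes a membrane protein that keeps Smad2 and Smad3 from the receptor, was at 204, 196, 198 and 191 TPM (197 ± 5.43). Ski, a corepressor of Smad complexes, was at 190.04, 181, 181 and 187 TPM (185 ± 4.60), and its paralog Skil, or SnoN, at 87.9, 84.7, 84.1 and 79.04 (83.9 ± 3.67). Pmepa1 lay above Ski in 4 of 4 libraries, though its lowest value (191) was close to the highest of Ski (190.04). Ski exceeded Skil by a log2 ratio of 1.14 ± 0.07. That ratio was 0.62 with the longest transcript as length where shorter than the exon length, and 0.34 without length scaling.

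The ubiquitin ligases and nuclear repressors lay close together. Smurf2, which targets receptors and Smads, was at 30.4, 29.8, 32.5 and 28.5 TPM, and Smurf1 at 22.8, 21.1, 21.4 and 20.2. Smurf2 was the higher in 4 of 4 libraries (log2 ratio 0.50 ± 0.08). Trim33, a ligase that acts on Smad4, was at 31.8, 29.5, 31.1 and 27.9 TPM, below Smad4 by a log2 ratio of -1.01 ± 0.06. The homeodomain corepressors Tgif1 (28.4, 26.9, 28.5 and 26.6 TPM) and Tgif2 (25.1, 24.6, 22.1 and 24.3) differed by 0.20 ± 0.11. Without length scaling, Trim33 stood above Smad4 by 0.39.

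**Figure D2:**
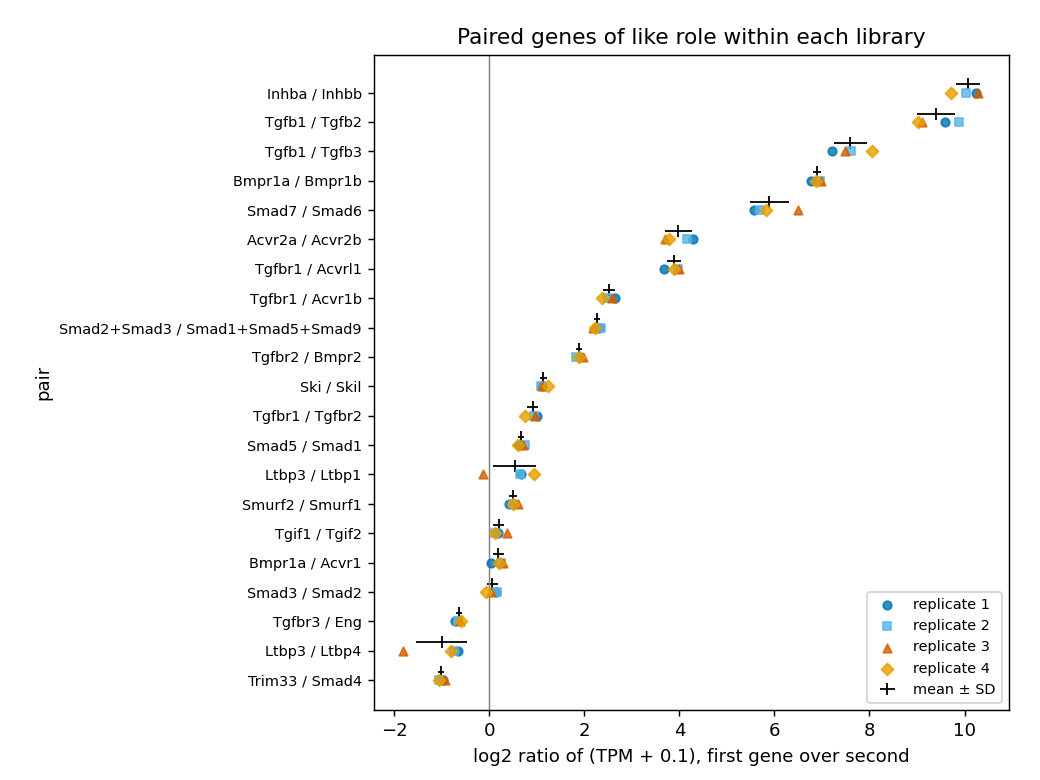
Log2 ratio of (TPM + 0.1) of the first gene over the second, for 21 pairs of genes with like roles (rows). Points are replicates 1 to 4 and black crosses are mean ± SD; 19 pairs lie on the same side of 0 in every library, and the points of Smad3 / Smad2 and Ltbp3 / Ltbp1 lie on both sides.

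Of the 21 pairs set up by role, 19 kept a single direction in 4 of 4 libraries, so their order was the same in replicates 1 and 2 as in replicates 3 and 4, which differ in sex-linked genes. For each of these 19 the exact two-sided sign-flip test gave p = 0.13 (2 of 16 sign patterns, adjusted p = 0.138 over 21 pairs), the smallest p that 4 libraries allow. The order of Bmpr1a over Acvr1 (log2 ratio 0.19 ± 0.11) turned to -0.26 when length was taken as that of the longest transcript where this is shorter than the exon length. The labels number the libraries as biological replicates of 1 donor label and do not say whether each came from its own animal or culture, so tests over them measure only the spread between these samples.

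None of the pathway genes was called variable between libraries, and their median spread was close to that of all genes, while a larger share of them than of all genes had an unadjusted p under 0.05. Of the 40 genes, 32 passed edgeR's filter on low counts. Of these, 0 of 32 were called variable (negative binomial deviance at edgeR's trended dispersion, adjusted p under 0.05), against 65 of 12434 genes (0.523%). At an unadjusted p under 0.05 there were 5 of 32 (15.6%), against 4.48% of all genes. The Poisson deviance with a 2-fold ratio between the highest and lowest library called 0 as well, against 1.74% of genes. Without the ratio it passed 19 of 32 (59.4%), against 36.6% of genes. These shares were not matched for abundance, and at high counts small differences pass. Furin passed with a highest-to-lowest ratio of 1.05 (Poisson deviance, adjusted p = 2.86e-24). The median SD of log2 CPM was 0.068 over the 32 and 0.070 over all genes tested, likewise without matching for abundance.

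The 5 genes with an unadjusted p under 0.05 were Tgfbr1, Inhba, Eng, Smad3 and Acvrl1. Tgfbr1 came closest to a call, with an adjusted p of 0.0586 by the edgeR-based deviance test and an SD of log2 CPM of 0.16. Its adjusted p by the deviance test was 0.00104 with the dispersion trend of DESeq2, 0.00043 when X- and Y-linked genes were left out and 0.0053 without replicate 3. It was 0.170 with no filter, 0.763 without replicate 2, and 1 without replicate 1 or replicate 4. Inhba had an adjusted p of 0.153 by the same edgeR test, and 0.0130 when X- and Y-linked genes were left out, the lowest over its alternatives with a negative binomial spread, the highest being 0.617. Eng (adjusted p = 0.194), Smad3 (0.533) and Acvrl1 (0.816) were not called under any negative binomial setting run with edgeR or DESeq2.

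**Figure D3:**
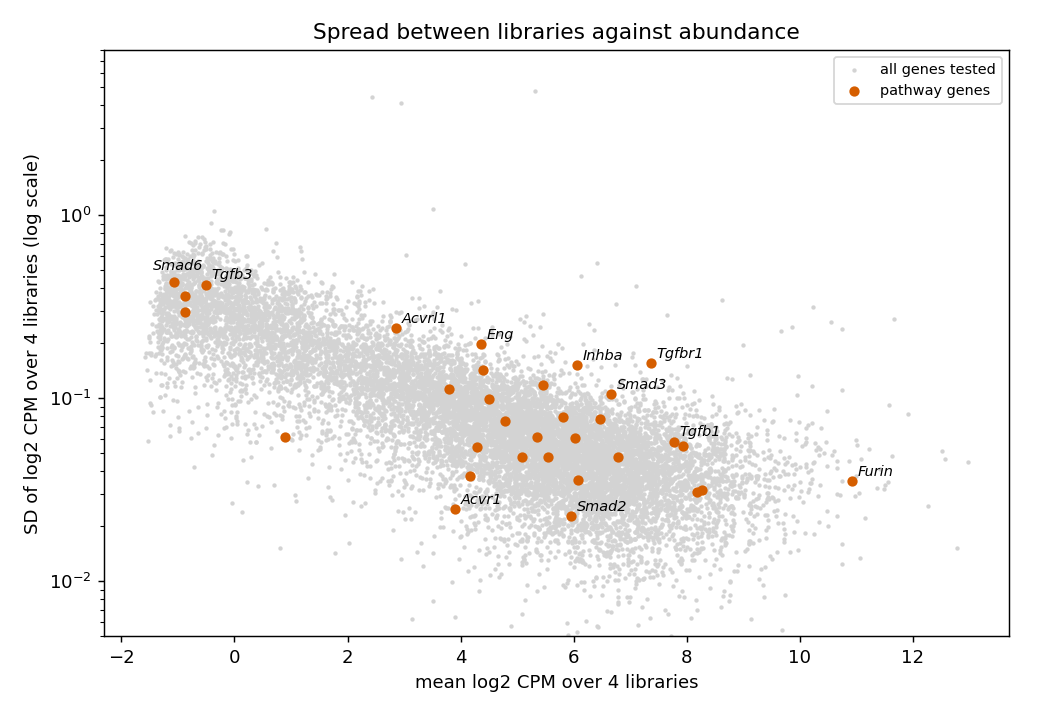
SD of log2 CPM over the 4 libraries (log axis) against mean log2 CPM, for all 12434 genes tested (grey) and the 32 tested pathway genes (orange). Most pathway genes lie within the grey cloud, with Tgfbr1, Inhba and Eng toward its upper edge and Smad2 and Acvr1 toward its lower edge.

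Replicate 4 was the low library for most of the tested pathway genes. In log2 CPM, 19 of 32 had their lowest value there, against 25% of all genes tested, and 26 of 32 lay below their own mean, against 49.1%. The median shift was -0.063 over the 32 and 0.0015 over all genes tested. Replicate 1 was the high library, with 16 of 32 highest there against 26.4% of all genes, and a median shift of 0.038. The downward shift in replicate 4 was largest for Tgfb3, Acvrl1, Tgfbr1 and Smad7. Ski, Tgif2, Smad1, Smad2, Acvr2b and Ltbp4 lay above their mean in replicate 4. A shorter TGF-beta list had shown the same direction in these libraries before the 40 genes were chosen, so these counts are a description and not separate evidence. Of the 8 regulatory T cell markers, Foxp3, Nrp1, Gpr83, Itgae and Lrrc32 were lowest in replicate 4 in TPM, Ctla4 was highest there, and Ikzf2 and Il2ra were neither. The summed list was highest there (3557 TPM). Their part in the shift was not tested.

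**Figure D4:**
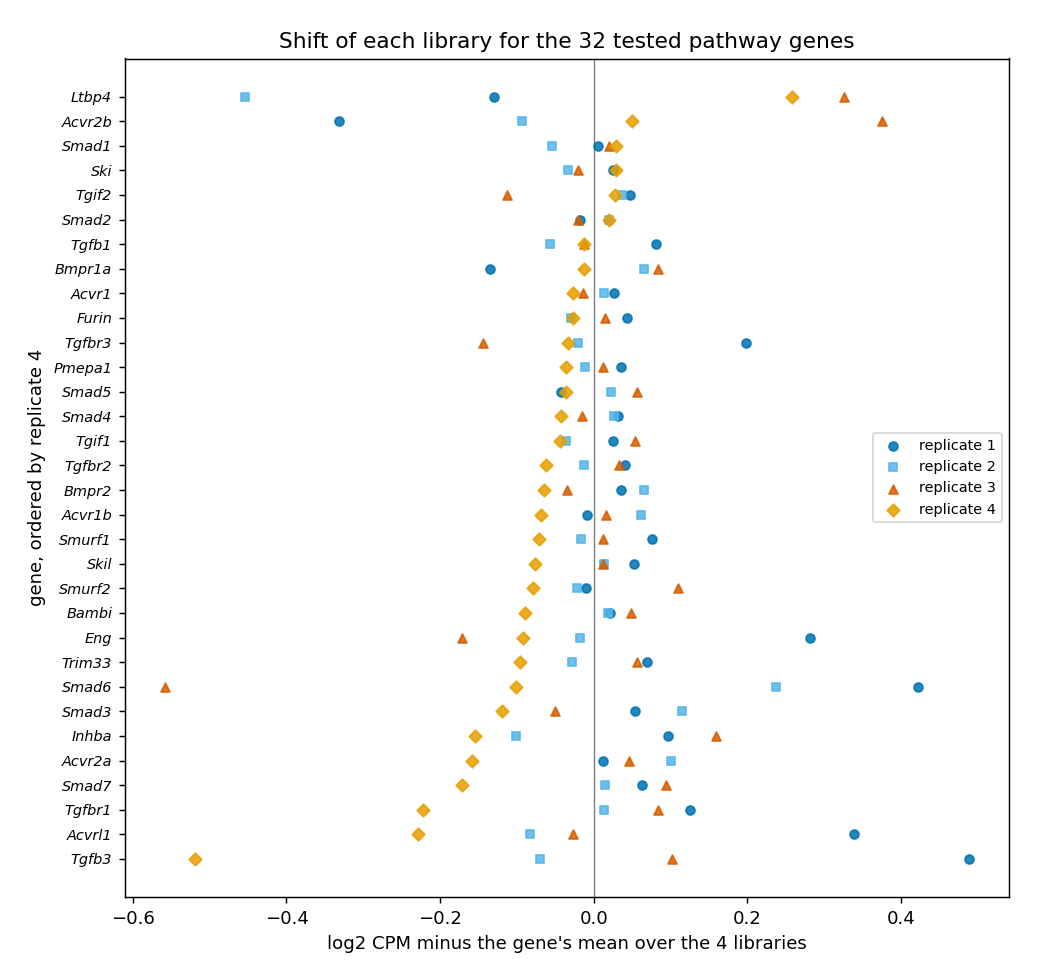
Log2 CPM of each library minus the gene's mean over the 4 libraries, for the 32 tested pathway genes (rows, ordered by replicate 4). Diamonds of replicate 4 lie left of 0 for 26 of 32 genes and circles of replicate 1 lie right of 0 for 25 of 32.

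Beyond the 40 genes, 112 other genes of the pathway were listed by role in 7 lists, of which 55 (49.1%) were at 1 TPM or more in every library, close to the 47.0% of protein-coding genes. Called variable was 1 of 61 tested (1.64%), against 0.523% of all genes. Most extracellular ligand and antagonist genes were not at 1 TPM or more in every library, though many had some counts. Of 23 other ligand-family genes 3 were present: Bmp1 (20.9 ± 1.88 TPM), which despite its name is a protease, Gdf11 (13.4 ± 0.605), a ligand of activin receptors, and Inha (3.12 ± 0.385), the inhibin subunit that pairs with activin subunits. Bmp4, Bmp6 and Nodal were among 11 with 0 counts. Of 14 extracellular antagonists only Twsg1 (79.8 ± 2.86 TPM), a BMP-binding protein, was present. Of 9 other receptors and coreceptors 3 were, with Nrp1 (6.51 ± 0.980) and Rgmb (6.25 ± 0.889), a BMP coreceptor, the highest.

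Activators of latent TGF-beta were present in part, at 5 of 14 genes. They were led by the integrin chains Itgb1 (183 ± 1.91 TPM) and Itgav (26.9 ± 1.60) and by Nrros (28.6 ± 0.990), which like Lrrc32 anchors latent TGF-beta on cells against 0.280 for Lrrc32. Itgb8, the partner of Itgav in an activating integrin, was at 0.987 ± 0.0462 TPM. Intracellular genes were mostly present: 25 of 26 Smad cofactors and turnover genes, led by the phosphatase subunit Ppp1ca (1393 ± 19.9) and the receptor-binding Fkbp1a (412 ± 5.62), and 6 of 6 genes of the TAK1 kinase branch, led by Map3k7 (128 ± 3.58) itself.

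Of 20 genes known as targets of the pathway in one cell type or another, 12 were present. Il9 (1595 ± 174 TPM), Junb (1054 ± 51.9), Id2 (608 ± 43.2), Cdkn1a (418 ± 27.8) and Gadd45b (226 ± 9.46) were the highest, and all have other inputs in T cells. The matrix genes Col1a1 and Fn1 were both at 0.15 TPM, and Ccn2 had 0 counts. Id3, a target of BMP and TGF-beta signals that restrains E proteins, was at 76.7, 50.7, 55.2 and 68.4 TPM, high in replicates 1 and 4 and low in replicates 2 and 3. It was the gene called variable (adjusted p = 0.00391, deviance at edgeR's trended dispersion). Id1, another such target, was at 43.5, 37.9, 38.0 and 37.1 TPM and was not called. Itgae, the CD103 integrin chain induced by TGF-beta in T cells, was under 1 TPM in replicates 2 to 4 (1.28, 0.966, 0.824 and 0.607 TPM).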

How the data were processed

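RNA of 4 Th17 libraries, a single group, was sequenced. The authors deposited raw counts of fragments by gene. They used featureCounts 1.4.6-p4 with paired reads with both ends mapped, reverse strand (option 2) and GENCODE M13 exons, per the file headers. The build is mm10, per the labels. Neither multi-mapping fragments nor fragments over several genes were counted, per the options in the file headers, and 37 of the 40 genes share 0% of exon bases with another gene on their strand. The aligner's settings are not given in the sources used here. Totals were 28555677, 36998648, 58104663 and 42896684 counts in replicates 1 to 4.

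TPM came from these counts and the deposited exon lengths. Symbols came from GENCODE M21, matched by gene ID for 50376 of 50600 genes. The members and lists were chosen with earlier results of these data known. Every member is named, and values per library are given for means of at least 20 TPM, ligands with any count and members that the results turn on. Of each other list at most 5 of the highest genes are named by rule, and others were chosen after their values were seen. For pairs, log2 ratios were taken after adding 0.1 TPM to each gene. The test was the exact sign-flip test, two-sided, over 16 patterns. Variation was tested with edgeR 4.0.16 in R 4.3.3 (TMM scaling, default filter, deviance of an intercept-only fit at the trended dispersion, chi-square with 3 degrees of freedom, Benjamini-Hochberg adjustment), with log2 CPM at a prior count of 2. On simulated counts of the 12434 genes it recovered 42% of genes changed 1.5-fold in 1 library, 78% at 2-fold and 100% at 3- and 4-fold. Without change it called 0, and 6.16% of genes had an unadjusted p under 0.05 by the same deviance test. Each simulated gene was drawn at exactly the trended dispersion, while real genes scatter around it. Alternatives were DESeq2 1.42.0 size factors and dispersions, a Poisson spread, no filter, other thresholds, pseudocounts and lengths, and each replicate left out. The length alternative was added after the data were seen.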

Additional observations from a re-analysis of the deposited data

Results flagged for a closer look

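Among 61 values checked, the 40 levels and 21 pair ratios, 6 had a library far from the other 3 by Dixon's test for 4 samples. Chance gives this for about 1 in 20 independent values with a normal spread. The pair ratios reuse the levels, and genes with few counts do not have such a spread, so that rate need not hold here. Smad1 was lower in replicate 2 (9.15 TPM) than in the others, and Bambi lower in replicate 4 (1.12 TPM). The log2 ratio of Ski to Skil was 1.24 in replicate 4, above the others, and that of Ltbp3 to Ltbp4 was -1.81 in replicate 3, where Ltbp3 had 2 counts. Inhbb in replicate 4 (0.0182 TPM) and Ltbp2 in replicate 3 (0.00699 TPM) stood apart through a single count each.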

How the results depend on the processing

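Of 189 single pair ratios recomputed over 9 settings, 186 kept their sign. Without length scaling, Tgfbr3 to Eng turned to a log2 ratio of 0.044 and Trim33 to Smad4 to 0.39. With the longest transcript as length where shorter, Bmpr1a to Acvr1 turned to -0.26 and the median level of the 40 genes moved to 12.5 TPM. The cause of the last shift was not tested. In the same setting 27 of the 40 genes were at 1 TPM or more in every library, against 28, with Bambi at 0.929 TPM. The number of all genes called variable was 113 with no filter, where more genes were tested, 216 with a Poisson spread and a 2-fold ratio, and 18 with that ratio at the trended dispersion. Leaving out each replicate gave 32 (without replicate 4) to 49, with 35 without replicate 1. Of the pathway genes, 1 (Tgfbr1) was called with the DESeq2 dispersion trend (69 of all genes), 2 (Tgfbr1 and Inhba) without genes of chromosomes X and Y (91 of all genes), and 0 to 1 with a replicate left out, the call being Tgfbr1 without replicate 3 (47 of all genes). At 5 TPM, 3 activators of latent TGF-beta were present. No paired analysis was possible because there is a single group.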

Other observations

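The exon models behind the counts differ from later ones for some genes. Inhba has 1980 exon bases in the deposited files, while its longest GENCODE M21 transcript has 6390, and Smad2 has 3549 against 8089. Fragments from bases outside the deposited models were not counted, so the levels of Inhba and Smad2 describe the shorter models. For Tgfb1 the order is the other way, with 5042 exon bases against 2573 in the longest transcript, and for Furin likewise, with 9178 against 5736.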
